A study of Homo sapiens with 21 samples.

Results

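The CCN proteins are small secreted proteins that sit in the extracellular matrix, bind integrins and syndecans on the cell surface and change how cells attach, migrate and divide. Their genes are among the best known targets of YAP and TAZ, a pair of transcriptional coactivators that bind DNA through the TEAD factors. In the Hippo pathway the kinases MST and LATS phosphorylate YAP and TAZ and hold them in the cytoplasm, and cell stretching, a stiff matrix and actin filaments free them to enter the nucleus. In breast epithelium and breast cancer cells, CYR61 and CTGF are used as readouts of this pathway.

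The 7 genes described here were taken by name from the 58735 genes of the expression table, which lists them under older symbols. NOV (now CCN3), CYR61 (CCN1) and CTGF (CCN2) encode CCN proteins. ANKRD1 encodes a nuclear ankyrin repeat protein, AMOTL2 a scaffold that binds YAP, and LATS2 a kinase that phosphorylates it, and all 3 are known targets of YAP that take part in or read out the same pathway. ADAMTS1 encodes a secreted protease that cleaves matrix proteoglycans. The rule uses gene names and no measured value, but the members were chosen with earlier results of these data known. NOV and ADAMTS1 also stand in a list that the study drew up from these libraries. The study listed them as higher with calcium, cadmium and GSK4716, so their direction in these groups is not independent evidence.

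MDA-MB-453 is a line of breast cancer cells classed as negative for estrogen receptor alpha. The study reports by quantitative PCR that calcium, cadmium and GSK4716 raised the RNA of its gene, ESR1. Each of 7 groups had 3 RNA-seq libraries of these cells, of wild-type genotype: untreated cells labelled control, calcium at 10 mM, cadmium at 10 µM, GSK4716 at 5 µM, DES at 10 µM, DES with calcium and DES with cadmium. GSK4716 is an agonist of the orphan nuclear receptor ESRRB, and diethylstilbestrol (DES) is used as its antagonist, so the comparisons ask which genes follow a metal or the agonist and which of these effects differ once DES is present. Treatments lasted 24 h, and in the combined groups DES was given 3 h before the metal, so that their time with DES may be longer and cannot be told apart from the metal. Cells for calcium and GSK4716 were kept in medium without serum and those for cadmium in medium with 1% charcoal-stripped serum. There is 1 control group, so the medium and at least 1 of the treatments cannot be told apart. GSK4716 and DES were dissolved in ethanol, and the sources used here do not say whether the control received it.

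Luminal markers of the line were expressed in every library, with KRT8 between 146 and 726 FPKM and GATA3 between 109 and 333 FPKM (fragments on a gene relative to its length and to the size of the library). Of 15 markers of fibroblasts, endothelium and leukocytes, COL1A1 reached 9.34 to 32.7 FPKM in every library, and the others stayed at or near 0, with at most 1.05 FPKM for CD68. The summed level of the 15 was 10.6 to 12.1 FPKM in the control libraries, 14.3 to 17.2 FPKM with calcium and 12.9 to 34.1 FPKM with DES, nearly all of it COL1A1, and its part in the results was not tested. Each library held between 14435925 and 28424805 fragments on genes. The number of genes with a fragment ran from 16605 in DES with cadmium replicate 1 to 35112 in DES replicate 3, and was 31147 in cadmium replicate 3. The library size behind the FPKM values was 1.08 to 1.15 times these fragments in the control and 0.693 to 1.05 times in the groups with DES, and its part in the results was not tested beyond the other scalings and the left-out libraries given with the results. Nothing in the labels places the 3 libraries of a group in separate cultures, so the p-values measure the spread between these libraries, which may be technical. In bulk RNA, fewer cells that express a gene and less of its RNA per cell cannot be told apart.

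The DNA just before the start of these genes is shown for the entries that hold the short motif of the TEAD factors, since that is how YAP and TAZ reach a gene. RefSeq entries on GRCh38.p14 were matched for 4 of the 7 genes (CTGF, ANKRD1, AMOTL2 and LATS2). Each window is the 250 bases before the transcription start, printed 5′ to 3′ on the strand of the gene (minus for all 3 genes shown), with capitals for GGAATG on either strand and for the AP-1 motif TGANTCA. The lines are CTGF at chr6:131951373-131951622, ANKRD1 at chr10:90921088-90921337 and AMOTL2 at chr3:134374448-134374697.
CTGF: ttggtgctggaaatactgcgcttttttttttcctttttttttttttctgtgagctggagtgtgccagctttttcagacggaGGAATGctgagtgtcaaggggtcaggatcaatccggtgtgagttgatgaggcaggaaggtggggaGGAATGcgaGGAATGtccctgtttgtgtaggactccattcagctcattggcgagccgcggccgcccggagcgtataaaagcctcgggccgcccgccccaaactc
ANKRD1: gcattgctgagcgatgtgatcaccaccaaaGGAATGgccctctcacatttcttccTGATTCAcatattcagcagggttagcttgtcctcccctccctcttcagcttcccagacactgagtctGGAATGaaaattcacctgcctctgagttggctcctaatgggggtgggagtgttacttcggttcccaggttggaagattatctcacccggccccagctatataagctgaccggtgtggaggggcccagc
AMOTL2: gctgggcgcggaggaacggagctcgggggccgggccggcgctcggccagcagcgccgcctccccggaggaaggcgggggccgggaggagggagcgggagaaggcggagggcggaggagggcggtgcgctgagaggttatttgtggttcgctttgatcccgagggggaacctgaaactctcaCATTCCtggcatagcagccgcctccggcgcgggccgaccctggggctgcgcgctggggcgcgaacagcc

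The CTGF window held 3 matches to GGAATG, at -169, -104 and -95 bases from the start (first base of each match). The ANKRD1 window held 2, at -220 and -128, with a TGANTCA match between them at -195. The AMOTL2 window shown held 1 match, at -69, on the opposite strand. The window of the other AMOTL2 entry and that of LATS2 (chr13:21061587-21061836) held no match to any motif searched. Over the 35114 windows of the same length in the reference, 11.9% held GGAATG and 6.57% TGANTCA. A CArG box, the site of the serum response factor SRF, was in 1.16% of all windows, the ESRRB element TNAAGGTCA in 0.854% and its core AAGGTCA, part of the longer element, in 3.44%, and these were in none of the windows of the 4 genes. A match in these letters is a description of the sequence and not a bound site.

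**Figure D1:**
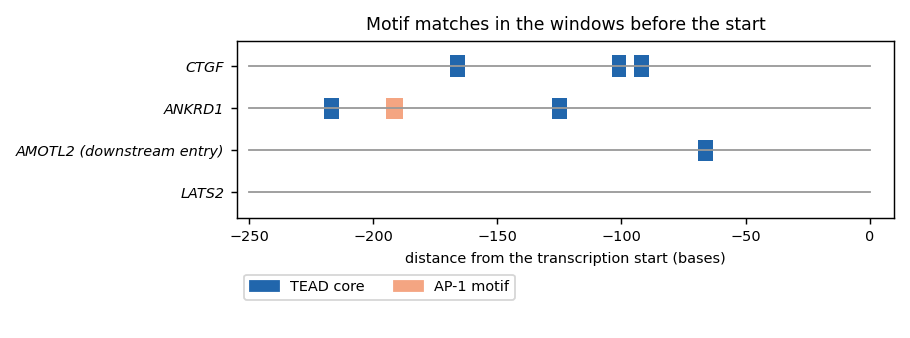
Positions of the TEAD core GGAATG (blue) and of the AP-1 motif TGANTCA (orange) on either strand in the 250 bases before the transcription start, with the distance from the start in bases on the x axis. CTGF holds 3 TEAD core matches, ANKRD1 2 with an AP-1 motif, the AMOTL2 entry shown 1, and LATS2 none.

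Among the 7 genes CYR61 had the highest mean level per length, 44.8 FPKM over the 21 libraries, followed by AMOTL2 at 17.5, NOV at 7.36, ADAMTS1 at 5.46, LATS2 at 2.68, CTGF at 0.992 and ANKRD1 at 0.0246 FPKM. The first 6 passed the filter of a mean of at least 0.5 FPKM and were tested. CTGF passed it also without the calcium libraries, at 0.549 FPKM over the other 18. ANKRD1 did not pass: 18 fragments were assigned to it in all 21 libraries, at most 5 in one, and 14 libraries had 0. Its libraries with a fragment were 1 with calcium, 2 with cadmium, 2 with DES and 2 with DES and cadmium, and no difference was detectable at this depth.

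CYR61 (ENSG00000142871, GRCh38 chromosome 1, 85580761 to 85583962, plus strand) is an immediate early gene that growth factors induce. The control libraries held 7.32, 8.79 and 11.9 FPKM. With calcium they held 108, 237 and 186 FPKM, with DES 32.4, 35.1 and 42.6 FPKM, and with DES and calcium 30.9, 38.3 and 56.1 FPKM. Every calcium library was above every library of the other 6 groups, and the libraries with DES and with DES and calcium overlapped each other and lay above the control. Cadmium gave 8.56, 29.3 and 13.8 FPKM, GSK4716 8.33, 14.6 and 11.6 FPKM, and DES with cadmium 22.6, 14.3 and 23.6 FPKM. The cadmium and GSK4716 libraries overlapped the control, while those with DES and cadmium lay above it and below those with DES.

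CTGF (ENSG00000118523, chromosome 6, 131948176 to 131951373, minus strand) is the family member best known for its part in fibrosis and wound repair, and its level in these cells was low. The 3 control libraries held 0, 1 and 4 fragments, or 0, 0.0202 and 0.103 FPKM. The calcium libraries held 73, 130 and 333 fragments, or 1.40, 3.18 and 6.36 FPKM, and the DES libraries 31, 44 and 49 fragments, or 0.586, 1.00 and 1.26 FPKM. Both groups lay above every control library. With DES and calcium the level was 0.764, 0.613 and 1.91 FPKM, which overlapped both DES and calcium. GSK4716 gave 0, 0.0241 and 0.108 FPKM, as low as the control. The remaining groups were uneven: cadmium gave 0.141, 1.72 and 0.0780 FPKM, so that replicate 2 held 82 of the 91 fragments, and DES with cadmium gave 0.452, 0.0308 and 1.06 FPKM.

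NOV (ENSG00000136999, chromosome 8, 119416306 to 119424353, plus strand) encodes the CCN protein often described as limiting proliferation. Control libraries held 0.833, 0.673 and 1.06 FPKM, and calcium libraries 12.5, 13.5 and 42.6 FPKM. Cadmium gave 2.67, 18.7 and 11.2 FPKM and GSK4716 4.19, 0.822 and 4.99 FPKM. All calcium and cadmium libraries lay above the control, and replicate 2 of GSK4716 lay within it. DES gave 3.37, 5.79 and 5.56 FPKM, DES with calcium 5.78, 3.70 and 4.49 FPKM, and DES with cadmium 3.44, 5.02 and 3.65 FPKM. These 3 groups overlapped one another and lay above the control and below calcium.

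ADAMTS1 (ENSG00000154734, chromosome 21, 26835747 to 26845409, minus strand) had its lowest level in the control, with 2.42, 1.80 and 2.16 FPKM. Calcium gave 4.40, 4.78 and 5.51 FPKM, cadmium 4.30, 8.42 and 5.00 FPKM, and GSK4716 6.19, 4.75 and 7.28 FPKM. All 9 of these libraries were above the control and the 3 groups overlapped one another. DES gave 5.25, 8.75 and 9.09 FPKM, DES with calcium 7.82, 6.98 and 9.62 FPKM, and DES with cadmium 2.32, 3.45 and 4.37 FPKM. The group with DES and cadmium was the only treated group whose libraries overlapped the control.

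AMOTL2 (ENSG00000114019, chromosome 3, 134355874 to 134375479, minus strand) was highest with DES, with 23.5, 29.1 and 30.3 FPKM against 11.0, 8.99 and 16.4 FPKM in the control. The other treated groups had means of 13.8 to 18.3 FPKM, and their libraries overlapped the control. LATS2 (ENSG00000150457, chromosome 13, 20973032 to 21061547, minus strand) held 2.04, 2.11 and 2.82 FPKM in the control, 2.99, 3.44 and 4.55 FPKM with calcium, and 0.751, 2.02 and 1.56 FPKM with DES and calcium. The groups with calcium and with DES and calcium lay on opposite sides of the control. Cadmium gave 2.84, 5.11 and 3.72 FPKM, all above the control, and the libraries with GSK4716, DES and DES with cadmium, at 3.14 FPKM or less, overlapped it. ANKRD1 (ENSG00000148677, chromosome 10, 90912096 to 90921276, minus strand) was at 0 in every library of the control, GSK4716 and DES with calcium groups, and no fold is given for it. Whether the counting kept the strand is stated both ways in the sources. Genes that overlap NOV, CTGF, AMOTL2 or LATS2 on either strand held at most 14 fragments in a library.

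**Figure D2:**
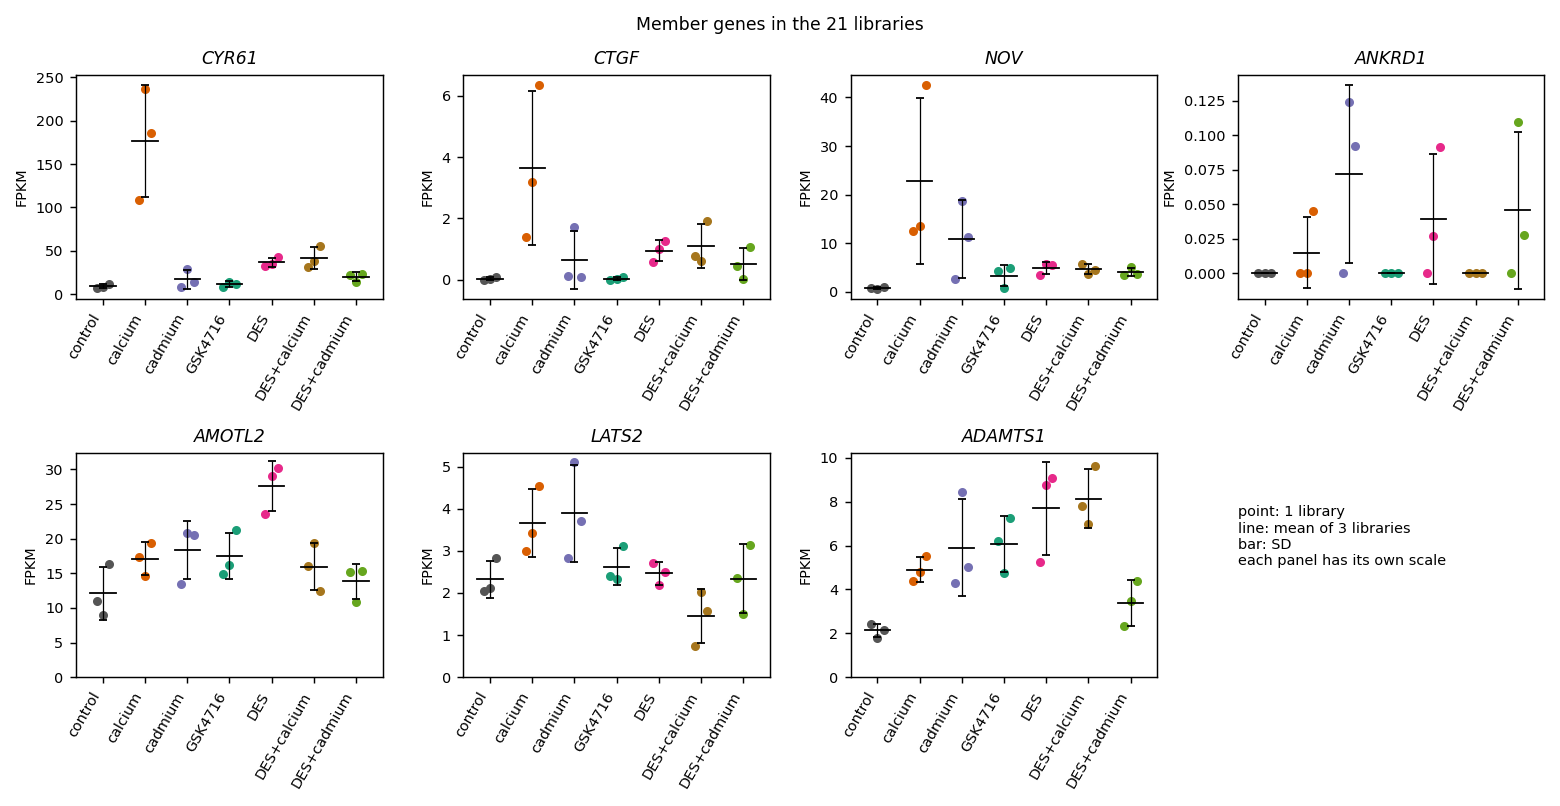
Level of each of the 7 genes in FPKM (y axis, a separate scale per panel) in the 7 groups, with 1 point per library, a line at the mean of 3 libraries and a bar of 1 SD to each side. CYR61, CTGF and NOV have their highest mean with calcium (177, 3.65 and 22.9 FPKM), AMOTL2 with DES (27.6 FPKM) and ADAMTS1 with DES and calcium (8.14 FPKM), and ANKRD1 is at or near 0 throughout.

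Calcium raised the 3 expressed CCN genes. On the log2(FPKM + 0.1) scale, CYR61 rose by 4.18 ± 0.33 (SE, n = 3 against 3, adjusted p = 0.00852, limma), from 9.34 ± 2.34 (SD) to 177 ± 64.7 FPKM. NOV rose by 4.36 ± 0.50 (adjusted p = 0.0123, limma), from 0.857 ± 0.197 to 22.9 ± 17.1 FPKM, and CTGF by 4.55 ± 0.59 (adjusted p = 0.0158, limma). The CTGF value depends on the constant added to a control near 0: it was 2.01 with a pseudocount of 1 and 6.81 with limma-voom on recovered fragments. ADAMTS1 rose less, by 1.17 ± 0.18 (adjusted p = 0.0239, limma), a ratio of mean FPKM of 2.30. AMOTL2 (0.53 ± 0.24, adjusted p = 0.258) and LATS2 (0.63 ± 0.23, adjusted p = 0.174, limma) did not pass, although the LATS2 libraries did not overlap.

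So 4 of the 6 tested genes were called higher with calcium, where 4.6% of the 14686 genes tested were called higher and 2.53% lower, and 5 had all libraries above the control, against 16% of all genes. Limma-voom on recovered fragments, scaled by total fragments, called the same 4 genes, with 756 of all genes higher and 830 lower, where the main test had 675 and 371. The median log2 fold change was 2.68 for the 6 genes and -0.01 for all genes. The 6 genes were chosen with earlier results of these data known, so these counts beside all genes are a description. These calls depended on single libraries. Without control replicate 1 none of the 4 passed (adjusted p = 0.0560 for CYR61 to 0.0869 for ADAMTS1), with log2 fold changes of 4.03 for CYR61, 4.36 for NOV, 4.34 for CTGF and 1.26 for ADAMTS1, and the calls over all genes fell from 1046 to 7. Without control replicate 2 only CYR61 passed (adjusted p = 0.0494), without calcium replicate 2 only CYR61 and NOV did, and the ADAMTS1 call was lost whichever library was left out. Without the filter on low values all 4 calls were lost, with adjusted p of 0.0624 to 0.1058 (limma).

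Of 25 genes of the Hippo pathway and its TEAD effectors, 20 were tested, and with calcium 1 was called lower and none higher, beside 2.53% and 4.6% of all genes. It was TEAD4, a DNA-binding partner of YAP, which fell by 0.94 on the log2 scale (SE 0.14, adjusted p = 0.0208, limma), from 23.4 ± 1.64 to 12.2 ± 1.66 FPKM (SD, n = 3). This call was lost when any 1 library other than calcium replicate 3 was left out, with adjusted p of up to 0.0928, and without the filter on low values (adjusted p = 0.102, limma). YAP1 itself differed by 0.38 ± 0.19 (adjusted p = 0.283) and WWTR1, the gene of TAZ, by 0.46 ± 0.21 (adjusted p = 0.262, limma). TEAD2 and TEAD3 differed by 0.11 each (adjusted p = 0.703 and 0.724, limma). The mean levels over all libraries were 21.5 FPKM for YAP1, 1.59 for WWTR1, 11.3 for TEAD2, 34.9 for TEAD3, 23.4 for TEAD4 and 0.119 for TEAD1, which was not tested.

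A list of 22 genes widely used as YAP and TAZ targets holds CTGF, CYR61, ANKRD1, AMOTL2 and LATS2, and 16 of the 22 passed the filter. With calcium 4 of the 16 were called higher and 1 lower, beside 4.6% and 2.53% of all genes, with a median of 0.62. Beside CTGF and CYR61 the higher genes were TGFB2, a secreted growth factor (5.15 ± 0.74, adjusted p = 0.0195), and GADD45A, a stress-induced inhibitor of the cell cycle (1.32 ± 0.10, adjusted p = 0.00852, limma). NUAK2, a kinase that feeds back on LATS, was lower by 1.32, from 6.70 to 2.62 FPKM (adjusted p = 0.0102, limma). The other 11 genes did not pass in either direction. None of the 16 passed without control replicate 1. Without control replicate 2 only CYR61 and GADD45A did, and the NUAK2 call was lost in both cases (adjusted p of up to 0.0635, limma), with log2 differences of -1.36 to -1.27 over the left-out libraries. TGFB2 lost its call without either of these controls and without calcium replicate 2, and without the filter only GADD45A and NUAK2 passed. TGFB2 is also in the study's list drawn from these libraries, which is not independent evidence.

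Genes of actin filaments and their transcription factor SRF, which respond to actin state like YAP does, were counted beside it. Of 14 such genes 10 were tested and 7 were called higher with calcium and none lower, beside 4.6% and 2.53% of all genes, with a median of 1.15. The largest differences were in ZYX, the focal adhesion protein zyxin (2.14 ± 0.21, adjusted p = 0.00979), ACTG1, gamma actin (1.65 ± 0.27, adjusted p = 0.0250), FLNA, the actin crosslinker filamin A (1.59 ± 0.20, adjusted p = 0.0138), and ACTB, beta actin (1.30 ± 0.27, adjusted p = 0.0459, limma). With 1 library left out the 7 calls became 0 to 6, with 0 without control replicate 1 or 2, 2 without calcium replicate 1 and 4 without calcium replicate 2. The ACTB call was lost whichever library was left out, and without the filter 1 of the 7 passed (limma). Of 9 genes for receptors of CCN proteins, 8 were tested and 1 was called higher, beside the same 4.6% of all genes. It was ITGA5, an integrin subunit of the fibronectin receptor, which rose by 1.42 ± 0.28 (adjusted p = 0.0400, limma) to 1.56 FPKM and lost its call whichever library was left out. The remaining CCN genes WISP1, WISP2 and WISP3 stayed at or under 0.171 FPKM in every library, and no relative or partner of ADAMTS1 or ANKRD1 on the lists passed the filter.

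**Figure D3:**
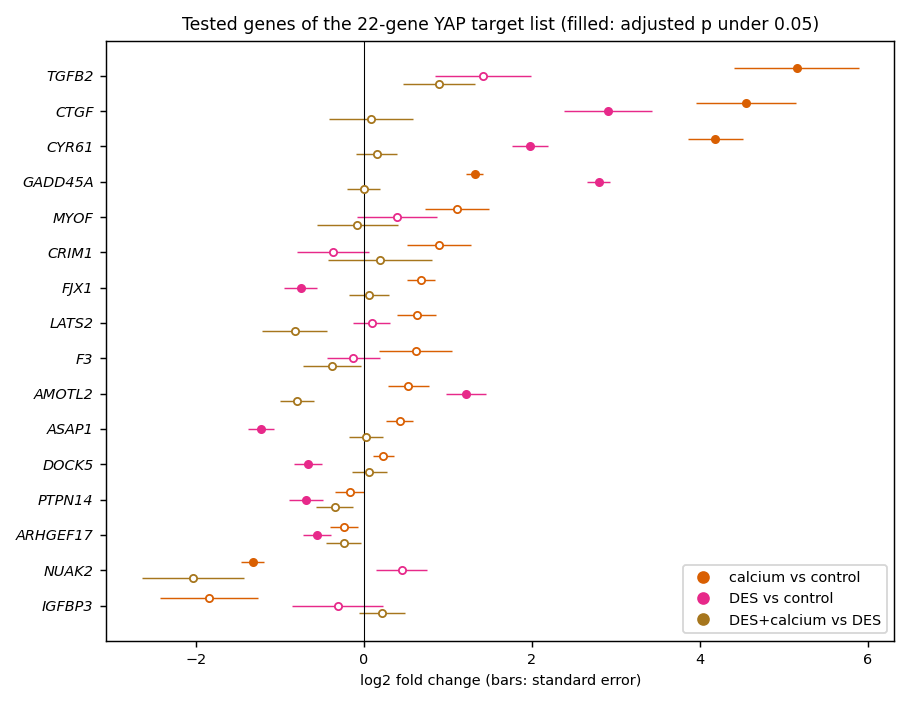
Log2 fold change on the log2(FPKM + 0.1) scale (x axis, bars of 1 SE) of the 16 tested genes of the 22-gene YAP and TAZ target list for calcium against control, DES against control and calcium added to DES, with filled points where the adjusted p of limma is under 0.05. TGFB2, CTGF and CYR61 lie above 4 with calcium, while with calcium added to DES no point is filled.

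With cadmium none of the 6 genes was called, where 0.129% of all genes were called higher and 0.0204% lower. The study, which tested read counts by another method, lists NOV and ADAMTS1 as higher with cadmium. The cause of this difference was not tested. NOV differed by 3.15 ± 0.69 (adjusted p = 0.0805) and ADAMTS1 by 1.38 ± 0.29 (adjusted p = 0.0726), and LATS2 by 0.69 ± 0.27 (adjusted p = 0.175, limma). In all 3 the cadmium libraries lay above the control, which held for 17.7% of all genes. The differences of CTGF (1.67, 95% interval -0.58 to 3.91, and 0.62 to 2.30 with 1 library left out), CYR61 (0.72, -0.39 to 1.82) and AMOTL2 (0.61, -0.07 to 1.29) had intervals that include 0. At an unadjusted p under 0.05, 3 of the 6 genes passed as higher, where 13.6% of all genes did and 12.4% passed as lower, and limma-voom called none of them, with 209 of all genes higher and 246 lower, where the main test had 19 and 3. Without cadmium replicate 1, NOV and ADAMTS1 were called, and that library also moved the calls over all genes from 22 to 1605.

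GSK4716 gave no called gene among the 6 and none among the 14686 (limma), with 1 of the 6 and 2404 of all genes at an unadjusted p under 0.05 (7.68% higher and 8.69% lower). Limma-voom called 49 genes, ADAMTS1 among them. In the study's list, NOV and ADAMTS1 are higher with GSK4716 as well, by its own test on read counts. ADAMTS1 differed by 1.46 ± 0.20 (adjusted p = 0.139, limma), from 2.13 ± 0.311 to 6.07 ± 1.27 FPKM (SD, n = 3), with all libraries above the control, as in 10.7% of all genes. NOV differed by 1.53 with a 95% interval of -0.11 to 3.16. The interval was -1.01 to 1.06 for CTGF and -0.35 to 0.93 for CYR61, so a rise of CYR61 as large as with calcium lies outside it.

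DES alone, given as the antagonist, raised 5 of the 6 genes, where 16.7% of all genes were called higher and 12.9% lower. CTGF rose by 2.91 ± 0.52 (adjusted p = 0.00832), NOV by 2.37 ± 0.29 (adjusted p = 0.00258) and CYR61 by 1.98 ± 0.21 (adjusted p = 0.00166, limma). The CTGF value again depends on the constant: it was 0.89 with a pseudocount of 1 and 4.95 with limma-voom, called in both. Limma-voom called 1782 of all genes higher and 2955 lower, where the main test had 2447 and 1893, and it called the same 5. In ratios of mean FPKM, NOV was 5.73 and CYR61 3.93 times the control. ADAMTS1 rose by 1.78 ± 0.26 (adjusted p = 0.00447) and AMOTL2 by 1.22 ± 0.24 (adjusted p = 0.0113, limma). LATS2 differed by 0.09, with a 95% interval of -0.43 to 0.61. The 5 genes had all DES libraries above the control, which 25.9% of all genes had. The median of the 6 genes was 1.88 and that of all genes 0.05. As with calcium, the genes were chosen with earlier results known, and these counts are a description. The AMOTL2 call was lost without control replicate 1 (adjusted p = 0.0503) and without the filter on low values (adjusted p = 0.0912, limma), and the other 4 calls held with each library left out.

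Of the 20 tested Hippo genes, 2 were called higher with DES and 5 lower, beside the 16.7% of all genes called higher and 12.9% lower. The 2 higher were SAV1 and AMOTL2, and AMOTL2 is a member already counted above. Of the kinases, TAOK1, TAOK2 and STK4 passed, and STK3, LATS1, LATS2 and TAOK3 did not, the kinases other than TAOK1 and LATS2 being named here after their values were seen. SAV1, the scaffold of the MST kinases, rose by 1.36 ± 0.22 (adjusted p = 0.00573), while TAOK1, a kinase upstream of MST, fell by 2.12 (SE 0.24, adjusted p = 0.00192), and NF2, the tumor suppressor merlin, fell by 1.11 (SE 0.20, adjusted p = 0.00868, limma). YAP1 (0.02, adjusted p = 0.921), WWTR1 (0.14, adjusted p = 0.663) and TEAD2 to TEAD4 (between -0.19 and 0.11, adjusted p of 0.448 or more, limma) did not pass. Of the 16 YAP and TAZ target genes 4 were called higher and 5 lower, with a median of -0.02. The 4 higher were GADD45A and the members CTGF, CYR61 and AMOTL2, already counted above. GADD45A had a rise of 2.80 ± 0.14 (adjusted p = 0.000152), from 13.0 to 90.8 FPKM, and ASAP1, a regulator of focal adhesions, fell by 1.23 (SE 0.16, adjusted p = 0.00273, limma). Of the 10 actin and SRF genes 2 were called higher and 3 lower: TPM1, a tropomyosin, rose by 1.53 ± 0.15, and MKL2, a coactivator of SRF, fell by 1.86 (adjusted p = 0.00126 and 0.00319, limma). ITGA6 and ITGAV, a pair of integrin subunits, fell by 1.21 and 0.96 (adjusted p = 0.0114 and 0.0489, limma). With 1 library left out the 5 lower targets became 1 to 4 and the 5 lower Hippo genes 2 to 6, STK4 and ITGAV losing their calls in 4 and 5 of the 6 cases and TAOK2 in 1. SAV1, TAOK1, NF2, GADD45A, ASAP1, TPM1, MKL2 and ITGA6 passed in all 6. Without the filter on low values NF2, ITGA6 and ITGAV lost their calls (limma). In that setting 1 Hippo gene was higher and 1 lower, 3 targets were higher and 2 lower, and 1 actin or SRF gene was higher and 2 lower.

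When calcium was added to DES, none of the 6 genes was called against DES alone (limma), and limma-voom called none. At an unadjusted p under 0.05, 1 of the 6 was lower, where 4.51% of all genes were higher and 8.71% lower. Among all genes 0 were called higher and 0.136% lower. CYR61 differed by 0.15 (95% interval -0.44 to 0.74), NOV by -0.06 (-0.75 to 0.64), CTGF by 0.09 (-1.13 to 1.30) and ADAMTS1 by 0.11 (-0.52 to 0.74). For CYR61, NOV and CTGF these intervals end below the rise seen with calcium alone. AMOTL2 (-0.80 ± 0.20, adjusted p = 0.224) and LATS2 (-0.83 ± 0.38, adjusted p = 0.415, limma) had all libraries below those of DES, which 12.1% of all genes had.

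The effect of calcium with DES minus its effect without DES was tested directly in the 4 groups. It was -4.03 ± 0.43 for CYR61 (adjusted p = 0.00274), -4.42 ± 0.59 for NOV (adjusted p = 0.00457) and -4.47 ± 0.82 for CTGF (adjusted p = 0.0175, limma). These 3 of the 6 genes were called lower, against 2.38% of all genes, and 1.25% were called higher. AMOTL2 (-1.33 ± 0.33, adjusted p = 0.05001), LATS2 (-1.45 ± 0.45, adjusted p = 0.0965) and ADAMTS1 (-1.06 ± 0.32, adjusted p = 0.0937, limma) did not pass. The 3 calls held with each library left out. The call of CTGF was lost with a pseudocount of 1 (-1.94, adjusted p = 0.0510) and with all 7 groups in 1 fit (adjusted p = 0.0784, limma). Without the filter on low values, only the CYR61 call held, with adjusted p of 0.0524 for NOV and 0.1065 for CTGF (limma). DES alone had already raised these genes, so that the starting level of CYR61 was 36.7 FPKM with DES and 9.34 FPKM without.

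The same contrast in the lists is set beside the 2.38% of all genes called lower and 1.25% called higher. It called 4 of 16 YAP and TAZ targets lower, namely CTGF, CYR61, TGFB2 (-4.26, adjusted p = 0.0300) and GADD45A (-1.32, adjusted p = 0.0164, limma). GADD45A stood at 90.8 FPKM with DES and 92.2 FPKM with DES and calcium. Of the 10 actin and SRF genes 4 were lower, namely ZYX (-2.21, adjusted p = 0.00408), FLNA (-1.68, adjusted p = 0.0305), TPM1 (-1.38, adjusted p = 0.00554) and SRF (-1.37, adjusted p = 0.0401, limma). In the Hippo list TEAD4 was called higher (1.16 ± 0.28, adjusted p = 0.0419, limma). With each of the 12 libraries left out in turn, the TEAD4 call was lost in 11 cases, SRF in 10, TGFB2 in 8 and FLNA in 6, and GADD45A, ZYX and TPM1 passed in all 12. Without the filter, ZYX and TPM1 passed in these lists beside CYR61. With all 7 groups in 1 fit, GADD45A, TGFB2, TPM1 and SRF lost their calls, while ZYX and FLNA kept theirs (limma).

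DES with calcium was also set against calcium alone. NOV differed by -2.05 ± 0.48 (SE, adjusted p = 0.0188, limma) and CYR61 by -2.05 ± 0.34 (adjusted p = 0.00647, limma), which left CYR61 at 41.7 ± 12.9 FPKM against 177 ± 64.7 FPKM (SD, n = 3). LATS2 was lower, at -1.36 ± 0.39 (adjusted p = 0.0353), and ADAMTS1 higher, at 0.72 ± 0.19 (adjusted p = 0.0272, limma). CTGF (-1.56, 95% interval -3.06 to -0.06, adjusted p = 0.0974) and AMOTL2 (-0.11, interval -0.60 to 0.38, limma) did not pass. So 3 of the 6 were called lower and 1 higher, where 16.5% of all genes were called lower and 18.5% higher. In these 4 genes the libraries of both groups did not overlap, as in 25.1% of all genes on the lower side and 25.7% on the higher. Limma-voom called 2232 of all genes higher and 3636 lower, against 2722 and 2426 in the main test, and did not call ADAMTS1 (adjusted p = 0.0820). Limma-voom did call CTGF lower, and so did the fit with the replicate number as a block. The LATS2 call was lost when any 1 of 5 of the 6 libraries was left out, the ADAMTS1 call with any 1 of 4 (adjusted p = 0.0700 to 0.0787), and the NOV call without DES with calcium replicate 2 or 3 (adjusted p = 0.0640 and 0.0556, limma). Of the 10 actin and SRF genes 8 were lower and none higher, led by MKL1, a coactivator of SRF (-1.58), and ZYX (-1.47, adjusted p = 0.00239 and 0.00221, limma), beside the shares of all genes above. Of the 20 Hippo genes 3 were higher and 5 lower. Beside LATS2 the largest differences were in NF2 (-1.48, adjusted p = 0.00209), TAOK1 (-1.31, adjusted p = 0.0247) and TEAD4 (1.27, adjusted p = 0.00453, limma), and TEAD2 differed by -0.56 (adjusted p = 0.0282, limma). The TAOK1 call was lost with any 1 of 5 of the 6 libraries left out and TEAD2 with any 1 of 4, while NF2 and TEAD4 passed in all 6. Of the 16 YAP and TAZ targets 2 were higher and 7 lower, and 3 to 6 lower with 1 library left out. The 8 lower actin and SRF genes became 5 to 7 in the same way. Without the filter 2 of these 8, NF2 and none of the targets passed (limma).

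Cadmium added to DES gave differences below 0 for all 6 genes against DES alone, and none was called, where 0.0272% of all genes were called higher and 0.238% lower (limma). AMOTL2 differed by -1.003 ± 0.23 (adjusted p = 0.186), ADAMTS1 by -1.17 ± 0.35 (adjusted p = 0.304) and CYR61 by -0.88 ± 0.26 (adjusted p = 0.301, limma). In these 3 every library lay below those of DES, which held for 10.9% of all genes, and the same 3 had an unadjusted p under 0.05, where 2.36% of all genes were higher and 8.03% lower. Limma-voom on recovered fragments called none of the 6, while with all 7 groups in 1 fit AMOTL2 and ADAMTS1 were called. NOV (-0.26, 95% interval -1.01 to 0.50), CTGF (-1.21, -3.20 to 0.78) and LATS2 (-0.13, -0.96 to 0.71) overlapped DES. With 1 library left out the CTGF difference ran from -1.91 to -0.34.

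Against cadmium alone, DES with cadmium gave no called gene among the 6, where 4.76% of all genes were called higher and 5.13% lower (limma). None of the 6 had an unadjusted p under 0.05, which 15.4% of all genes had as higher and 17.2% as lower. Limma-voom called none either, with 420 of all genes higher and 1508 lower, where the main test had 699 and 754. The differences ran from -1.04 for NOV (95% interval -2.68 to 0.60) to 0.38 for CYR61 (interval -0.74 to 1.505).

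The effect of cadmium with DES minus its effect without was called for ADAMTS1 alone, at -2.55 ± 0.46 (adjusted p = 0.0326, limma), where 0.94% of all genes were called lower and 0.238% higher. Its level went from 2.13 to 5.91 FPKM with cadmium and from 7.70 to 3.38 FPKM when cadmium was added to DES. NOV (-3.41 ± 0.79, adjusted p = 0.0625) and AMOTL2 (-1.61 ± 0.37, adjusted p = 0.0626, limma) did not pass. The ADAMTS1 call was lost when any 1 of 7 of the 12 libraries was left out (all 3 control libraries, cadmium replicates 2 and 3, and DES replicates 2 and 3), with adjusted p of 0.0571 to 0.107 (limma). It was also lost with limma-voom (adjusted p = 0.0512) and without the filter on low values (adjusted p = 0.1016, limma). Without cadmium replicate 1, NOV, AMOTL2 and ADAMTS1 were all called.

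**Figure D4:**
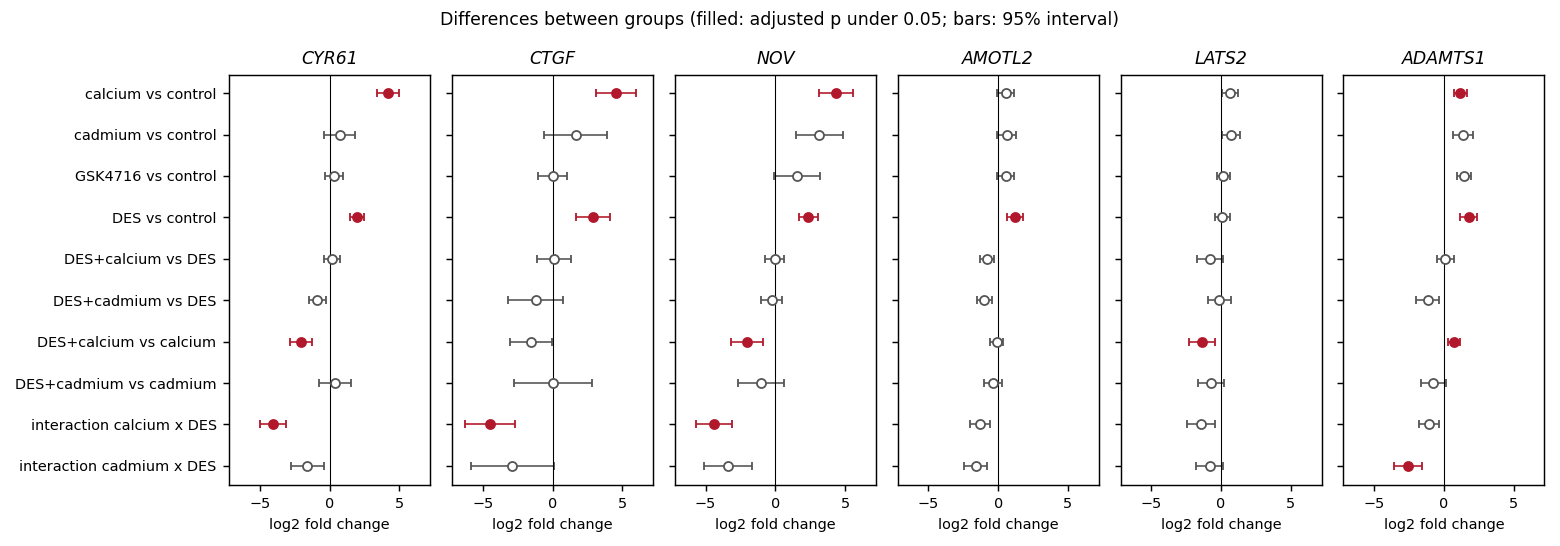
Log2 difference on the log2(FPKM + 0.1) scale (x axis) with its 95% interval for the 6 tested genes in the 8 comparisons between groups and the 2 interactions, each with 3 libraries a group. Filled red points have an adjusted p under 0.05 (limma): CYR61, CTGF and NOV are filled for calcium, for DES and, below 0, for the interaction of calcium with DES, and LATS2 is filled once, for DES with calcium against calcium.

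Across the 21 libraries the 6 tested genes did not form 1 pattern. Pearson's r of log2(FPKM + 0.1), given as a description of libraries that share their groups, was 0.913 between CYR61 and CTGF, 0.712 between NOV and CYR61 and 0.729 between NOV and CTGF. ADAMTS1 and AMOTL2 stood at 0.636, LATS2 with CYR61 at 0.213 and LATS2 with ADAMTS1 at -0.0242.

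Among the 12245 genes with a mean of at least 1 FPKM, those most like CYR61 were AREG, which encodes the EGF receptor ligand amphiregulin (r = 0.959), the interferon-induced GTPase gene GBP2 (r = 0.941) and NR4A1, an immediate early nuclear receptor gene (r = 0.915), each over 21 libraries. AREG went from 0.524 ± 0.129 FPKM in the control to 34.4 ± 30.1 with calcium, 4.75 ± 3.58 with DES and 3.54 ± 0.727 with DES and calcium (SD, n = 3). The mean of NR4A1 was 9.55 ± 1.05 FPKM in the DES group and 23.3 ± 8.88 FPKM when calcium came on top of DES. CTGF was most like CYR61 itself, followed by GBP2 (r = 0.890) and MAP3K8, a MAP kinase kinase kinase gene (r = 0.883).

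NOV was most like GAB2, a signaling adaptor gene (r = 0.864), LONRF3 (r = 0.862) and SWAP70 (r = 0.848). GAB2 had means of 1.17 ± 0.410 FPKM in untreated cells, 7.04 ± 1.68 after calcium, 3.96 ± 1.96 after cadmium and 2.01 ± 0.657 after DES (SD, n = 3). ADAMTS1 was most like FOXO1, a forkhead transcription factor gene (r = 0.837), SIAH1, a ubiquitin ligase gene (r = 0.815), and SAV1 (r = 0.768). FOXO1 was lowest in the control, at 2.12 ± 0.273 FPKM, and highest with DES, at 9.92 ± 3.03 FPKM. The closest genes to AMOTL2 were ZNF669, PPP1R15B and NRBF2 (r = 0.777 to 0.785) and to LATS2 KCNK6, TNFRSF21 and C14orf132 (r = 0.806 to 0.842).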

How the data were processed

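RNA was poly-A selected and sequenced as paired reads of 150 bases. The submitters' processing notes name HISAT2 2.0.5, featureCounts 1.5.0-p3 and GRCh38.p14, and the methods name DESeq2 and edgeR, neither of which was run here. The authors deposited FPKM per gene and library, with gene length. FPKM times length was a whole multiple of 1 step per library for 100% of values (tolerance 0.05 fragments), which gave fragments. The library size in FPKM was 0.693 to 1.15 times the fragments on genes (median 18314738), and no library pair shared over 4.97% of its fragment values. Genes with a mean of at least 0.5 FPKM were tested with limma 3.58.1 (R 4.3.3, trend) on log2(FPKM + 0.1), in the compared groups only, two-sided, with Benjamini-Hochberg adjustment over all 14686 genes and a threshold of 0.05. An exact permutation test of 3 against 3 cannot go below 0.1. The steps were tested on simulated data. Figures used matplotlib 3.10.9, and motifs were searched on both strands.

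Members, gene lists and tests were chosen with earlier results of these data known. Named genes are the members in each comparison, from each list at most the 4 largest called differences of a comparison, YAP1, WWTR1 and TEAD1 to TEAD4, the cell markers, and the 3 genes most correlated with each member. The alternatives were a pseudocount of 1, no filter, median-ratio scaling, each library left out, all 7 groups in 1 fit, limma-voom on the recovered fragments, and the replicate number as a block. Deviations from group means correlated over 0.1 in every same-numbered pair for DES with calcium against DES (0.103 to 0.280) and DES with cadmium against DES (0.121 to 0.472), and in no other comparison. This pairing comes from the data alone.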

Additional observations from a re-analysis of the deposited data

Results flagged for a closer look

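The effect of calcium differed with and without DES for NOV (difference of effects -4.42 on the log2 scale), CYR61 (-4.03) and CTGF (-4.47), and the effect of cadmium differed for ADAMTS1 (-2.55). Each is the contrast between both effects in a model of 4 groups of 3 libraries (limma, adjusted p of 0.00457, 0.00274, 0.0175 and 0.0326). Without the filter on low values only CYR61 kept its call, and ADAMTS1 also lost it with limma-voom (adjusted p = 0.0512) and without any 1 of 7 of the 12 libraries. All calcium libraries of NOV, CYR61 and CTGF lay above the control, whereas the libraries with DES and calcium overlapped those with DES. ADAMTS1 lay above the control in each cadmium library, and each library with DES and cadmium lay below those with DES. The medium, and the time with DES, cannot be told apart from these effects.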

How the results depend on the processing

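Of 792 values of a log2 fold change of the 6 tested genes under an alternative, 697 kept their direction and their side of the threshold, 49 kept the direction and lost the call, 23 gained a call and 23 changed sign, none of these called in either setting. Without the filter on low values, which tests 58735 genes, members called fell to 0 for calcium against control, DES with calcium against calcium and the cadmium interaction, and to 1 (CYR61) for the calcium interaction. With all 7 groups in 1 fit they were 2 for cadmium against control, 2 for DES with cadmium against DES, 1 for DES with cadmium against cadmium and 3 for the cadmium interaction. Limma-voom gave 1 for GSK4716 and 0 for the cadmium interaction, and a pseudocount of 1 gave 2 there. The replicate block gave 3 for the cadmium interaction, cost ADAMTS1 its call with calcium (adjusted p = 0.0845) and changed no member's call in the paired comparisons. Leaving out 1 library gave 0 to 3 called for calcium, 0 to 2 for cadmium, 1 to 3 for DES with calcium against calcium, 3 to 5 for the calcium interaction and 0 to 3 for the cadmium interaction. Signs turned with limma-voom for LATS2 with DES (-0.062), for CTGF (-0.0544) and ADAMTS1 (-0.0159) with calcium added to DES and for CTGF in DES with cadmium against cadmium (-0.313, and -0.0401 with a pseudocount of 1). With 1 library left out, the log2 fold change of CTGF with GSK4716 ran from -0.27 to 0.32, and with calcium added to DES those of CTGF ran from -0.37 to 0.38, CYR61 from -0.0841 to 0.344, NOV from -0.302 to 0.0929 and ADAMTS1 from -0.14 to 0.25. LATS2 with cadmium added to DES ran from -0.37 to 0.14, AMOTL2 in DES with calcium against calcium from -0.26 to 0.0552, and in DES with cadmium against cadmium CYR61 from -0.0245 to 0.856 and CTGF from -0.67 to 1.08. Limma-voom moved the median of all genes to between -0.44 (DES with cadmium against cadmium) and -0.01 (cadmium against control), and the cause was not tested. The calls over all genes ran from 7 (without control replicate 1) to 1586 (limma-voom) for calcium and from 1715 (no filter) to 5078 (without DES replicate 1) for DES. The depth limits CTGF and ANKRD1, with 5 and 0 fragments in the control group. The gene lists were run under the same alternatives after the data had been seen, and with calcium the replicate block called 2 of the 10 actin and SRF genes, 3 of the 16 targets and none of the 20 Hippo genes.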
